A study of Mus musculus with 12 samples.

Results

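In wild-type mouse embryonic fibroblasts, 70 of 18193 genes had a signal that was lower after 1 h with interleukin-1 beta (IL-1b) and back near the unstimulated level after 4 h. The members were chosen as follows. Each gene was represented by the probe set with the highest mean log2(signal + 8) over all 12 arrays. Both unstimulated wild-type signals had to be at least 50, the 1 h group mean had to differ from the unstimulated mean by -0.9 or less on that log2 scale, and the 4 h mean had to lie between -0.5 and 0.5 of it. Symbols that start with Zfp or Hox and the gene Aldh1a3 were left out. Of 8550 genes with both unstimulated signals at least 50, 145 met the 1 h limit. Among these, 83 were within the 4 h limits, 54 were still lower and 8 were higher than the limits allow. The 83 included 13 genes left out by symbol, all starting with Zfp. The members were thus selected on their wild-type signals, which are given below as a description, with no test.

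The study compared fibroblasts cultured from wild-type embryos with fibroblasts from animals whose IRAK4 is kinase dead (KD). Cells of each genotype were grown for 4 h without stimulation, or with 1 ng/ml IL-1b for 1 h or 4 h, which makes 6 groups of 2 arrays each. RNA was amplified, labelled and hybridised to Affymetrix arrays with 1 colour, and the values are MAS5 signals, a linear measure of probe set brightness. The unstimulated cells were grown for 4 h and no unstimulated 1 h group was analysed here, so at 1 h the time in culture and IL-1b cannot be told apart. The sources used here do not give the embryonic stage, the number of embryos or the passage. The arrays of a group are described as biological replicates, with no animal or culture named, so p-values measure the spread between these samples. For wild-type unstimulated replicate 1 no genotype stands in the title, and it was placed through the study's design. In these bulk samples, fewer cells of a type and less RNA per cell cannot be told apart.

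Array medians were 23.0 to 28.3 signal units, and every array had a trimmed mean of 150. All 10 fibroblast markers on the list passed the filter, with a summed signal of 26365 to 31766 per array. Unstimulated means differed between the genotypes for Pdgfra (583.5 in wild-type and 131.8 in kinase-dead cells), Lum (362.8 and 64.4) and S100a4 (3007.2 and 1534.8). Those of Col1a1 (5133.6 and 5455.5) and Vim (5948.5 and 6648.6) were closer. Sums of macrophage markers were 247 to 291 on the wild-type arrays and 552 to 658 on the kinase-dead arrays, with 1 of 9 (Itgam) below 25.5 on every array. Below that level on every array lay 4 of 8 endothelial, 5 of 9 epithelial, 3 of 8 skeletal muscle and 1 of 9 neural and glial markers. The neural and glial sums were 5151 to 5814 on wild-type and 5860 to 6632 on kinase-dead arrays, most of it from Ncam1, a cell adhesion molecule. A list of 8 early IL-1b response genes had a median log2 difference at 1 h of 4.46 in wild-type and 1.07 in kinase-dead cells.

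IL-1b binds its receptor, which brings the adaptor MyD88 and the kinases of the IRAK family together, and the signal passes to NF-kB and MAP kinases. IRAK4 is the first kinase of that complex. Most descriptions of the early response are about induced genes, such as chemokines and inhibitors of NF-kB. The level of a transcript follows both its synthesis and its decay, so a short-lived transcript can be lowered and restored within hours.

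Promoters are shown here for 5 members whose signals also fell at 1 h in kinase-dead cells (below), to set their upstream sequences side by side. Of the 70 members, 58 had a promoter in the RefSeq table (mouse build GRCm38.p6, 250 bases before to 50 after the start). The motifs, and these 5 genes, were chosen after the values were seen. Capitals mark, on either strand, the E-box CACGTG, the related site CACGAG, the core TGACG of the cyclic AMP response element, the AP-1 motif TGANTCA and the NF-kB-type motif GGGNNTTCC. Plcxd2 and Rbak are shown because they hold none of these letters in this window.
Txnip (chr3:96557707-96558006, + strand): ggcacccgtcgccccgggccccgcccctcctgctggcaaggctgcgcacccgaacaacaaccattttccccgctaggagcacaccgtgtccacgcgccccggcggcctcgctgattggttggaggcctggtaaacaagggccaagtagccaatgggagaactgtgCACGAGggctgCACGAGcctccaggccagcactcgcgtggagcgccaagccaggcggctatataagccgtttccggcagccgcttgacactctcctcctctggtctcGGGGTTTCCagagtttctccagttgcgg
Arrdc4 (chr7:68749189-68749488, - strand): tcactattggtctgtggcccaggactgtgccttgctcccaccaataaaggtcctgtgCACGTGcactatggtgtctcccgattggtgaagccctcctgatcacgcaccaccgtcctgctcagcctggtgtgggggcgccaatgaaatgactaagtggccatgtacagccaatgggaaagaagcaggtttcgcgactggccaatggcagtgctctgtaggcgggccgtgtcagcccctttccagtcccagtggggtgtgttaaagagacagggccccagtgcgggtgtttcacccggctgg
Creb5 (chr6:53287053-53287352, + strand): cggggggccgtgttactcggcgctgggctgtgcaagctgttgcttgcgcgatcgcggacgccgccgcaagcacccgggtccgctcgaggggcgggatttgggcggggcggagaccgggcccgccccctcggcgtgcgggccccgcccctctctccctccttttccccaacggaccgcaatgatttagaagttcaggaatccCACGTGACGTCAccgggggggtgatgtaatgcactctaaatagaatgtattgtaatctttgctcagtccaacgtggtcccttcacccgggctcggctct
Plcxd2 (chr16:46010364-46010663, - strand): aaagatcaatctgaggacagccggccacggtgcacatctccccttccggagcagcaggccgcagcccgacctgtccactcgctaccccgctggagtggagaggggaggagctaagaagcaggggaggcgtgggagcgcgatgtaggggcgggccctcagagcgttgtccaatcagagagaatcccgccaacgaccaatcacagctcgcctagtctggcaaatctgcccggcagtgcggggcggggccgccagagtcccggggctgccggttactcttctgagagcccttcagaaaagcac
Rbak (chr5:143180726-143181025, - strand): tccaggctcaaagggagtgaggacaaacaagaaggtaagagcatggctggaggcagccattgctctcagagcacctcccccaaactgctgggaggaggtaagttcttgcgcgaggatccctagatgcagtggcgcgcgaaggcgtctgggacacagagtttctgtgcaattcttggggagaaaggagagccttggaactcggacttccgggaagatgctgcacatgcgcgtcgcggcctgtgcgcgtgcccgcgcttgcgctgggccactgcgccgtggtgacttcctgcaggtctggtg
Txnip held CACGAG at 2 places and a GGGNNTTCC match at 1. Arrdc4 held CACGTG once. In Creb5, which has 2 listed promoters of which the first is shown, CACGTG ran on into TGACGTCA, the full element that factors of the CREB family bind. Over all members with a promoter, CACGTG was in 10.3%, against 10.1% of the promoters of 10000 genes tested and 7.2% of 27025 promoters of the same length. CACGAG was in 8.6% of members and 8.5% of genes tested. TGACGTCA was in 5.2% and 3.2%, and its shorter form TGACG, which overlaps it, in 19.0% and 31.4%. TGANTCA was in 8.6% and 4.9%, and GGGNNTTCC in 10.3% and 7.2%. TATAAA was in 15.5% of members, 7.5% of genes tested and 14.2% of all promoters. CCAAT was in 43.1% and 38.3%, and GGGCGG in 67.2% and 63.6%. The median GC content of the promoters was 62.0% in members and 61.0% in genes tested. A match describes the letters and does not show a site in use. The members lay on 19 chromosomes with at most 6 on one, 66 were protein coding, and 4 (5.71%, against 3.2% of genes tested) were long non-coding RNAs.

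Across the members, the wild-type 1 h minus unstimulated log2 difference was -2.48 to -0.91 with a median of -1.06, and at 4 h it was -0.50 to 0.45 with a median of -0.15. Medians over all 12427 genes tested were -0.06 and -0.12. The median member had a mean signal of 144.0 unstimulated, 61.6 at 1 h and 141.5 at 4 h. In every member both 1 h arrays were below both unstimulated arrays, as the rule nearly ensures. The 12 members with the largest 1 h difference were Kbtbd8 (-2.48), Ret (-2.37), Pkp1 (-2.26), Creb5 (-1.95), AA386476 (-1.69), Ttc9 (-1.53), Cspg4 (-1.48), Tnik (-1.39), Mterf1a (-1.37), Tspan33 (-1.36), Cyp26b1 (-1.33) and Slc16a4 (-1.33). Just inside the limit lay Slc20a1 (-0.92), E2f7 (-0.92), Cnot3 (-0.91) and Pdik1l (-0.91), and just outside it Micall1, Plagl2, Fam160a2 and Esrra (-0.90 to -0.89), so the edge of the list is not a gap in the values.

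**Figure D1:**
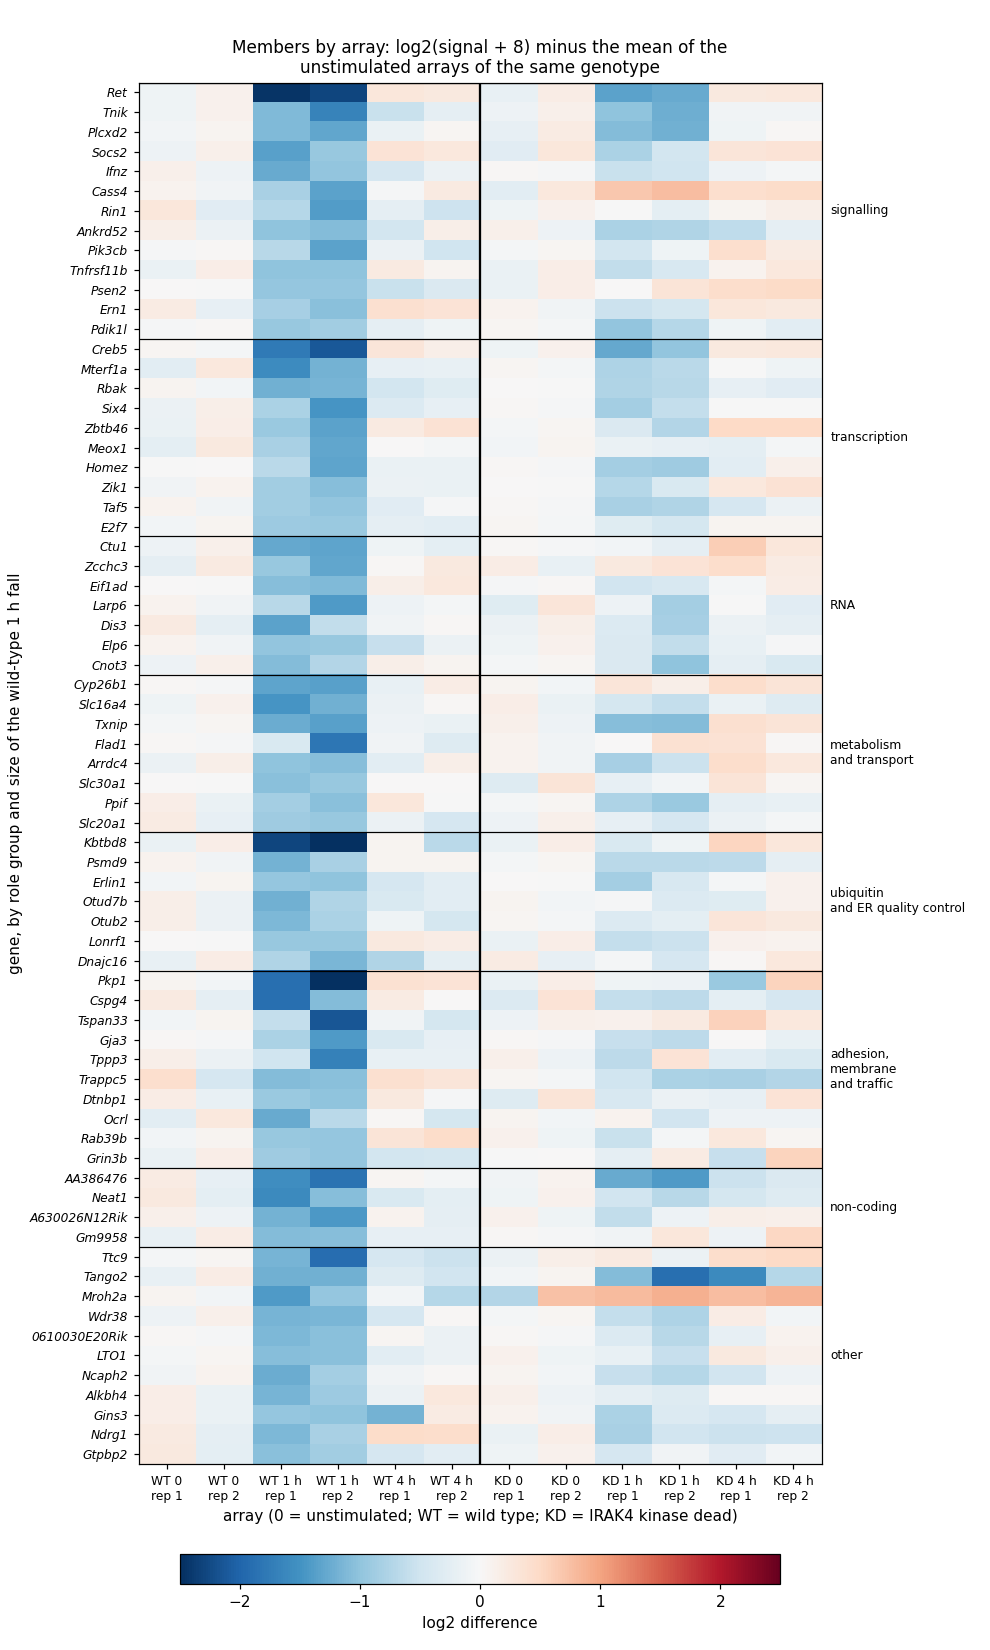
Colour gives log2(signal + 8) of each of the 70 members (rows, by role) on each of the 12 arrays (columns), minus the mean of the unstimulated arrays of the same genotype (WT wild type, KD kinase dead, 0 unstimulated). The wild-type 1 h columns are blue throughout by the rule, and the kinase-dead 1 h columns are blue for most rows, with a median of -0.51.

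The kinase-dead arrays took no part in the choice beyond the mean over all arrays that picked the probe set, so they give a separate reading of the same genes. At 1 h the members were mostly lower there too. Of the 70, 21 (30%) fell at 1 h against unstimulated kinase-dead cells, where 1.72% of all 12427 genes tested fell, and 0 rose, against 1.55% of all genes. By an unadjusted p under 0.05, 40 members (57.1%) were lower and 1 higher, against 9.09% and 7.58% of all genes. Among the 8550 genes with wild-type unstimulated signals of at least 50, the share that fell was 2.39%. The other 49 members did not pass the test (limma, Benjamini-Hochberg adjusted p under 0.05). The median kinase-dead 1 h log2 difference was -0.51 in members (range -1.48 to 0.84) and -0.01 over all genes. In all, 61 members lay below 0 (87.1%, against 51.9% of all genes). Both 1 h arrays lay below both unstimulated arrays in 48 members (68.6%, against 26.3% of all genes), and above them in 4 (5.7%, against 23.4%).

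The number of calls depended on single arrays. Without kinase-dead unstimulated replicate 1 or 2, 11 or 6 members fell, and without kinase-dead 1 h replicate 1 or 2, 8 or 9 did. The background also shrank, to 0.901%, 0.217%, 0.426% and 0.443% of all genes. Without a variance trend 7 members and 0.161% of genes fell, and without the filter on low signals 12 members and 0.726% did. The ratio of 3' to 5' actin probe signals, which tracks RNA integrity, was 2.85 ± 0.0178 in unstimulated kinase-dead cells and 2.42 ± 0.0894 at 1 h (SD, n = 2), against 2.41 ± 0.385 and 2.43 ± 0.0109 in wild-type cells, and its part in the result was not tested.

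At 4 h the median of the members lay near the unstimulated level in kinase-dead cells, with single members on both sides of it. Against unstimulated cells, 0 of 70 passed the limma test at 4 h, where 0.177% of all genes fell and 0.443% rose. By an unadjusted p under 0.05, 6 members were lower (8.57%, against 7.05% of all genes) and 7 higher (against 6.61%). The median log2 difference was 0.01 (range -1.145 to 0.815), with 35 members below 0 and 35 above, and with arrays centred on their median it was -0.06. From 1 h to 4 h, 18 members (25.7%) rose and 0 fell, against 2.28% and 1.83% of all genes. By an unadjusted p under 0.05, 32 (45.7%) were higher and 0 lower, against 9.62% and 8.59% of all genes. The median difference was 0.41 (range -0.28 to 1.55) beside 0.01 for all genes. Both 4 h arrays lay above both 1 h arrays in 51 members (72.9%, against 26.9% of all genes). This comparison shares the kinase-dead 1 h arrays with the one before, so the 2 counts are not separate evidence, and 13 members are in both. The count was 5 without a variance trend, where 0.418% of all genes rose. It was also lower when any kinase-dead 1 h or 4 h array was left out, as was the share of all genes that rose. Against unstimulated cells at 4 h, a fit of only the kinase-dead arrays called 1 member lower and 1 higher (1.43% each). In that fit 1.23% of all genes were lower and 1.46% higher. Calls of members also appeared when some single arrays were left out.

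**Figure D2:**
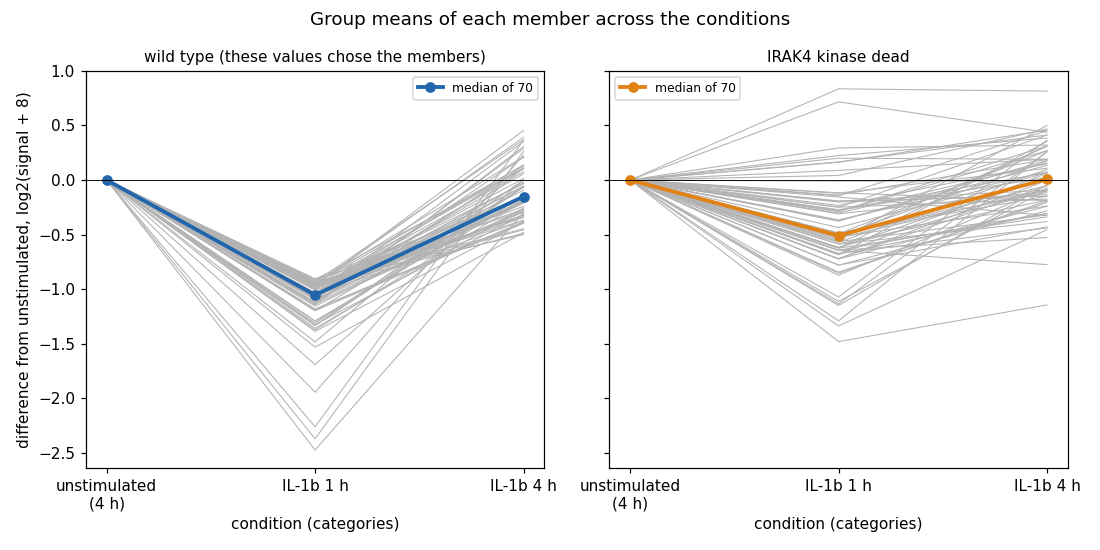
Lines give the group mean difference from unstimulated cells, in log2(signal + 8), of each member at 1 h and 4 h with IL-1b, in wild-type cells (left, values that chose the members) and kinase-dead cells (right), and thick lines the median. The kinase-dead median goes from 0 to -0.51 and to 0.01.

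Most members differed less from unstimulated cells at 1 h in kinase-dead cells than in wild-type cells, where the rule had selected large differences. Kinase-dead over wild-type log2 difference had a median of 0.468 over the members. It was 0 or less in 9 members, between 0 and 0.5 in 29, between 0.5 and 0.75 in 23 and 0.75 or more in 9. Since the wild-type values were selected, this ratio is a description and was not tested. Across the 70 members, the wild-type and kinase-dead 1 h differences correlated weakly (Pearson 0.163, Spearman 0.082), over genes that share the same arrays within each genotype. The rule cut the wild-type differences off at -0.9, and such a narrowed range lowers a correlation. These values therefore do not measure how alike the responses of the genotypes are. When the same rule was applied to the kinase-dead arrays, 29 of all 18193 genes met it. Of these 29, 6 were members (20.7% of that list, 8.6% of the members), namely AA386476, Creb5, Plcxd2, Ret, Tnik and Txnip.

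**Figure D3:**
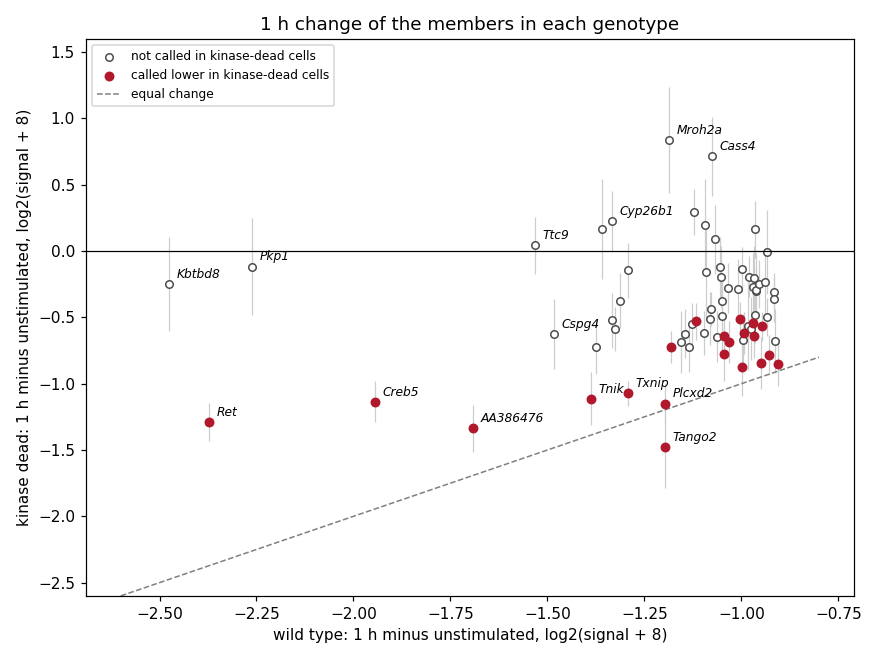
Each point is 1 member, placed by its 1 h minus unstimulated log2(signal + 8) in wild-type cells (horizontal) and kinase-dead cells (vertical, with the standard error of the limma fit), and filled points are the 21 that fell in kinase-dead cells. Ret, Creb5 and AA386476 are low on both axes, while Kbtbd8 and Pkp1 are low in wild-type cells and near 0 in kinase-dead cells.

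Signalling genes were the largest role group, with 13 members of which 7 fell at 1 h in kinase-dead cells and 7 rose from 1 h to 4 h. For all members these shares were 30% and 25.7%, and for all genes 1.72% and 2.28%, which apply to the role groups below too. Roles were assigned by hand after the values were seen. Some genes, such as Ern1 and Cass4, could have been placed in another group. Ret encodes the receptor tyrosine kinase for ligands of the GDNF family, known for its part in the enteric nervous system and the kidney. Its signals were 340.8 and 396.4 in unstimulated wild-type cells, 60.9 and 68.4 at 1 h and 447.3 and 438.1 at 4 h, and in kinase-dead cells 336.0 and 436.4, then 147.5 and 156.3, then 457.6 and 463.0. Both genotypes started at like levels, all 1 h arrays were far below all others, and the wild-type 1 h arrays were the lowest. In kinase-dead cells Ret fell by 1.29 ± 0.14 (SE) on the log2 scale at 1 h (adjusted p = 5.38e-05) and rose by 1.55 ± 0.14 from 1 h to 4 h (adjusted p = 6.16e-06). Both calls held whichever array was left out. A dimmer Ret probe set had group means of 1.05 to 10.55, too low to follow.

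Plcxd2, a protein with the X domain of phospholipase C, had wild-type signals of 284.2 and 316.9, then 135.8 and 117.5 at 1 h, then 265.0 and 310.2 at 4 h, and kinase-dead signals of 330.6 and 438.6, 174.5 and 160.3, and 352.9 and 387.2. The 1 h arrays of both genotypes lay below all others. It fell by 1.15 ± 0.15 in kinase-dead cells at 1 h (adjusted p = 0.000404) and rose by 1.11 ± 0.15 to 4 h (adjusted p = 0.00048), and both calls held whichever array was left out. Tnik, a kinase of the Ste20 type with a part in Wnt target gene activation, had signals of 132.1 and 152.9, 61.7 and 39.3, and 94.3 and 121.2 in wild-type cells, and 173.5 and 207.8, 90.2 and 77.3, and 179.0 and 177.3 in kinase-dead cells. Within each genotype the 1 h arrays were the lowest. The brightest other Tnik probe set differed, with means of 41.75 unstimulated, 43.65 at 1 h and 23.2 at 4 h in wild-type cells. In kinase-dead cells its means were 95.65, 64.35 and 60.55, with no return at 4 h. On the representing probe set, Tnik fell by 1.11 ± 0.20 at 1 h in kinase-dead cells (adjusted p = 0.006). That call was lost without kinase-dead unstimulated replicate 2 or 1 h replicate 2 (highest adjusted p = 0.0926).

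Cytokine receptors and feedback genes were also in this group. Tnfrsf11b encodes osteoprotegerin, the secreted decoy receptor for RANK ligand, and was among the brightest members, with signals of 2082.7 and 2625.4, 1167.3 and 1158.8, and 2716.7 and 2442.6 in wild-type cells. In kinase-dead cells the signals were 1155.4 and 1464.7, 843.4 and 982.5, and 1383.4 and 1558.9. Within each genotype the 1 h signals were the lowest, and unstimulated kinase-dead signals were below the unstimulated wild-type ones. It fell by 0.51 ± 0.13 in kinase-dead cells (adjusted p = 0.0352, up to 0.397 and no longer called in 5 of 12 fits that left out 1 array) and rose by 0.69 ± 0.13 to 4 h (adjusted p = 0.00527, up to 0.0966 in such fits). Socs2, an inhibitor of growth hormone and cytokine receptor signalling, had signals of 482.8 and 573.1, 201.8 and 270.5, and 672.7 and 633.7 in wild-type cells, and 145.2 and 220.2, 100.2 and 128.1, and 221.4 and 228.2 in kinase-dead cells. All kinase-dead signals were lower than the unstimulated wild-type ones. Its kinase-dead 1 h difference was -0.62 ± 0.18 (adjusted p = 0.0769), and it rose by 0.94 ± 0.18 to 4 h (adjusted p = 0.0082, up to 0.118 in fits without 1 array).

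Other signalling members that fell at 1 h in kinase-dead cells were Pdik1l, a protein kinase (-0.85 ± 0.16, adjusted p = 0.00797), Ankrd52, a regulatory subunit of protein phosphatase 6 (-0.78 ± 0.20, adjusted p = 0.0459), and Ifnz, interferon zeta (-0.53 ± 0.14, adjusted p = 0.0441). Their calls were lost in 3, 7 and 6 of the 12 fits that left out 1 array. Ern1 encodes the IRE1 sensor of unfolded protein in the endoplasmic reticulum. Its kinase-dead signals were 294.2 and 257.9, 186.1 and 200.8, and 337.2 and 329.3. Signals at 1 h lay below the rest and at 4 h above. It rose by 0.76 ± 0.14 from 1 h to 4 h (adjusted p = 0.00635, lost in 3 of 12 such fits), and its 1 h difference was -0.49 ± 0.14 (adjusted p = 0.0727).

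**Figure D4:**
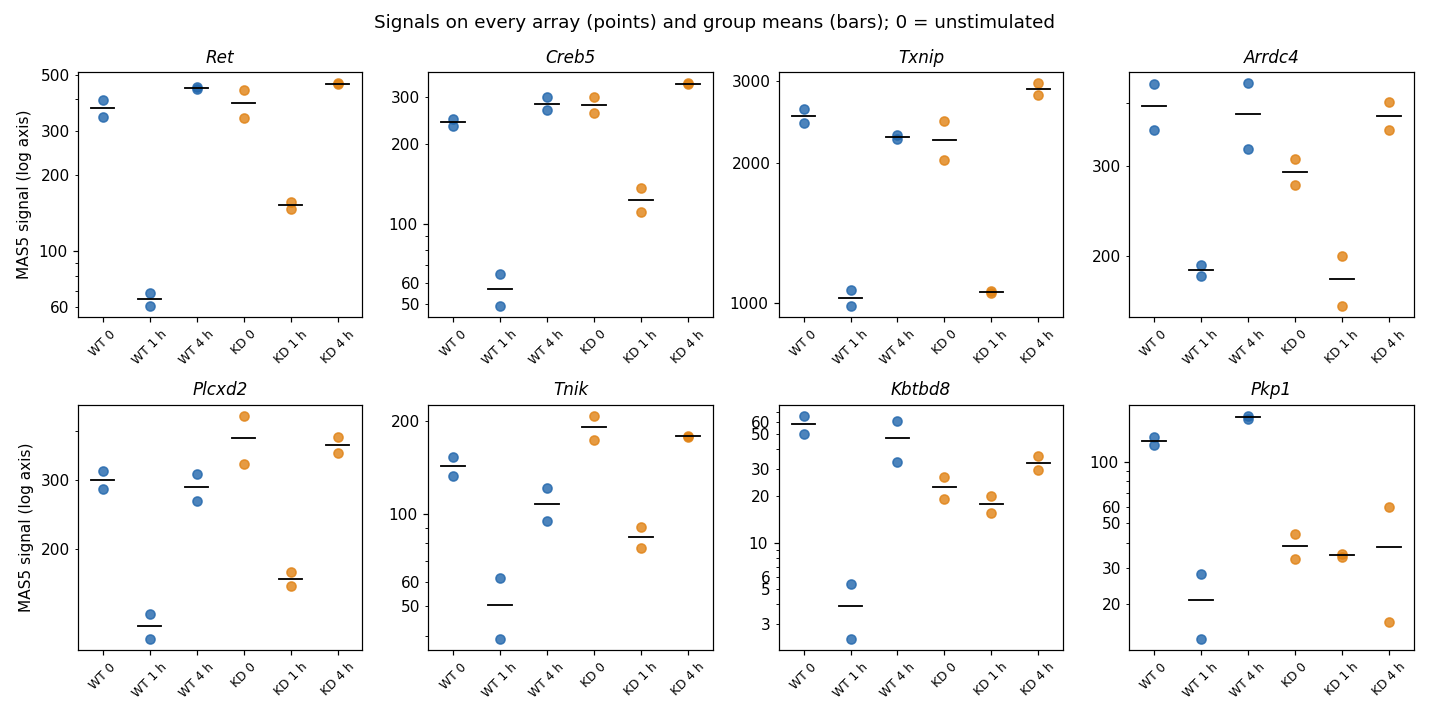
Points are the MAS5 signals of 8 members on each array (log axis, scaled per gene), and bars the means of the 2 arrays of a group, in wild-type (WT) and kinase-dead (KD) cells, where 0 is unstimulated. Ret, Creb5, Txnip, Arrdc4, Plcxd2 and Tnik are lowest at 1 h in both genotypes, and Kbtbd8 and Pkp1 in wild-type cells alone have 1 h arrays below all others of that genotype.

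The 10 transcription members all lay below 0 at 1 h in kinase-dead cells, with a median of -0.72, and 5 fell and 5 rose from 1 h to 4 h. Creb5, a leucine zipper factor that binds cyclic AMP response elements and whose own promoter shown above holds one, had wild-type signals of 247.0 and 233.0, 64.5 and 49.2, and 298.2 and 267.2, and kinase-dead signals of 259.4 and 299.7, 110.3 and 136.1, and 333.6 and 337.5. Both genotypes were lowest at 1 h, and the wild-type signals there were lower than the kinase-dead ones. Creb5 fell by 1.14 ± 0.16 in kinase-dead cells (adjusted p = 0.000604) and rose by 1.40 ± 0.16 to 4 h (adjusted p = 6.2e-05), and both calls held whichever array was left out. The dimmer Creb5 probe sets had group means of 3.85 to 33.85 and did not show this course. A probe set among them was highest at 1 h, with means of 7.8, 26.85 and 15.85 in wild-type cells and 4.25, 33.4 and 8.55 in kinase-dead cells. The others were not highest at 1 h in both genotypes.

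Rbak and Zik1 are KRAB zinc finger proteins, a family of repressors. Rbak signals were 408.3 and 367.0, 163.3 and 169.0, and 278.4 and 310.8 in wild-type cells, and 461.3 and 452.8, 266.9 and 280.3, and 394.5 and 376.5 in kinase-dead cells. Replicates were close together and the 1 h arrays were the lowest in each genotype. Rbak fell by 0.72 ± 0.12 in kinase-dead cells (adjusted p = 0.00309, held whichever array was left out) and rose by 0.48 ± 0.12 to 4 h (adjusted p = 0.0298, lost in 4 of 12 fits that left out 1 array). Zik1 fell by 0.54 ± 0.13 (adjusted p = 0.0368, lost in 7 of 12 such fits) and rose by 0.85 ± 0.13 to 4 h (adjusted p = 0.00161, held in all 12). Taf5, a subunit of the general factor TFIID, fell by 0.78 ± 0.15 (adjusted p = 0.00908, lost in 4 of 12). Homez, a homeodomain protein, fell by 0.87 ± 0.22 (adjusted p = 0.0387, lost in 6 of 12). Zbtb46, a BTB zinc finger factor, rose by 1.05 ± 0.16 from 1 h to 4 h (adjusted p = 0.00137, held in all 12), and Six4, a homeodomain factor, rose by 0.72 ± 0.19 (adjusted p = 0.0451, lost in 8 of 12).

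In the metabolism and transport group of 8, 3 fell at 1 h in kinase-dead cells and 2 rose to 4 h. Txnip and Arrdc4 are alpha-arrestins that limit glucose uptake and are known to be induced by glucose. Txnip, the brightest member in unstimulated wild-type cells, had signals of 2442.6 and 2615.5, 1067.1 and 988.0, and 2298.5 and 2251.5 in wild-type cells, and 2456.1 and 2033.4, 1064.9 and 1052.3, and 2970.6 and 2801.0 in kinase-dead cells. The 1 h arrays of both genotypes lay close together and far below all others. Txnip fell by 1.07 ± 0.09 in kinase-dead cells (adjusted p = 3.62e-06) and rose by 1.44 ± 0.09 to 4 h (adjusted p = 6.29e-08), and both calls held whichever array was left out. Arrdc4 had signals of 353.8 and 434.0, 192.0 and 183.2, and 323.8 and 436.9 in wild-type cells, and 310.0 and 275.4, 159.8 and 200.1, and 400.6 and 353.2 in kinase-dead cells. Again the 1 h arrays were below all others in each genotype. A dimmer Arrdc4 probe set was lower at 1 h with no return at 4 h. Its means were 44.1, 22.55 and 20.55 in wild-type cells and 31.3, 18.35 and 17.25 in kinase-dead cells. The tested values are those of the brighter probe set. Arrdc4 fell by 0.68 ± 0.16 in kinase-dead cells (adjusted p = 0.0272, lost without any of the 4 arrays compared, up to 0.237) and rose by 1.04 ± 0.16 to 4 h (adjusted p = 0.0013, held in all 12 fits that left out 1 array).

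Ppif encodes cyclophilin D of the mitochondrial matrix and fell by 0.84 ± 0.19 at 1 h in kinase-dead cells (adjusted p = 0.0245, lost without any of the 4 arrays compared). Cyp26b1, an enzyme that breaks down retinoic acid, behaved otherwise, with signals of 61.3 and 58.6, 19.3 and 18.6, and 51.8 and 69.3 in wild-type cells and 49.8 and 45.1, 59.9 and 53.7, and 67.2 and 61.6 in kinase-dead cells. Its kinase-dead 1 h arrays were not below the unstimulated ones, with a difference of 0.22 ± 0.23 (adjusted p = 0.691). Flad1, which makes the cofactor FAD, had 0.20 ± 0.34 (adjusted p = 0.841), with overlapping kinase-dead signals of 52.6 and 45.6 unstimulated and 49.6 and 66.4 at 1 h. Slc16a4, of the monocarboxylate transporter family, had a kinase-dead difference of -0.52 ± 0.21 (adjusted p = 0.199), the zinc exporter Slc30a1 of -0.14 ± 0.17 (adjusted p = 0.751) and the phosphate importer Slc20a1 of -0.31 ± 0.14 (adjusted p = 0.279).

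Among 7 members that act on RNA, 0 fell at 1 h in kinase-dead cells by the limma test, where 4 were lower by an unadjusted p under 0.05. At 1 h 6 lay below 0, with a median of -0.49. From 1 h to 4 h 1 rose, Eif1ad, related to a translation initiation factor (0.50 ± 0.13, adjusted p = 0.0366, lost in 5 of 12 fits that left out 1 array). Ctu1, which thiolates transfer RNA, had the largest wild-type difference of the group (-1.29) and a kinase-dead difference of -0.14 ± 0.21 (adjusted p = 0.795). Cnot3, a subunit of the CCR4-NOT deadenylase, had -0.68 ± 0.24 (adjusted p = 0.151), and Dis3, a ribonuclease of the exosome, -0.59 ± 0.24 (adjusted p = 0.21).

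All 7 members of the ubiquitin and endoplasmic reticulum quality control group lay below 0 at 1 h in kinase-dead cells, with a median of -0.29, and 2 fell. Lonrf1, a RING domain protein, had kinase-dead signals of 630.7 and 795.3, 463.4 and 486.8, and 760.1 and 757.0. Signals were lowest at 1 h. Lonrf1 fell by 0.57 ± 0.11 (adjusted p = 0.00882, lost in 3 of 12 fits that left out 1 array) and rose by 0.67 ± 0.11 to 4 h (adjusted p = 0.00197, held in all 12). Erlin1, which takes part in degradation at the endoplasmic reticulum, fell by 0.62 ± 0.16 (adjusted p = 0.0387, lost in 9 of 12) and rose by 0.64 ± 0.16 to 4 h (adjusted p = 0.0294, lost in 3 of 12). Kbtbd8, a substrate adaptor of cullin 3 ligases with the largest wild-type difference of all members, had signals of 50.4 and 65.8, 5.4 and 2.4, and 61.0 and 33.3 in wild-type cells, and 19.0 and 26.4, 15.4 and 20.1, and 36.2 and 29.2 in kinase-dead cells. The wild-type 1 h signals were at the bottom of the scale, and the kinase-dead unstimulated and 1 h arrays overlapped. Its kinase-dead 1 h difference was -0.25 ± 0.36 (adjusted p = 0.794).

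In the group of 10 adhesion, membrane and traffic genes, 0 passed the limma test at 1 h or from 1 h to 4 h in kinase-dead cells. By an unadjusted p under 0.05, 3 were lower at 1 h and 2 higher from 1 h to 4 h, and 9 lay below 0 at 1 h, with a median of -0.24. Pkp1 encodes plakophilin, a plaque protein of desmosomes, the junctions that anchor keratin filaments. Its signals were 132.2 and 120.6, 28.3 and 13.6, and 167.9 and 161.8 in wild-type cells, and 33.5 and 44.0, 35.4 and 34.3, and 16.3 and 60.3 in kinase-dead cells. All kinase-dead arrays were below the unstimulated wild-type arrays, with no order by time. The kinase-dead difference at 1 h was -0.12 ± 0.36 (adjusted p = 0.918). Cspg4, the NG2 proteoglycan of pericytes and progenitor cells, had signals of 141.9 and 101.0, 26.5 and 52.5, and 139.4 and 121.4 in wild-type cells, and 90.5 and 148.1, 73.6 and 71.2, and 96.2 and 84.4 in kinase-dead cells. The kinase-dead 1 h arrays were the lowest of that genotype, at -0.63 ± 0.26 (adjusted p = 0.234). Gja3, a connexin of gap junctions, had -0.62 ± 0.17 (adjusted p = 0.0525), Trappc5, a TRAPP complex subunit, -0.65 ± 0.19 (adjusted p = 0.0838) and the tetraspanin Tspan33 0.17 ± 0.38 (adjusted p = 0.889).

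Of the 4 long non-coding RNAs, AA386476 had signals of 190.7 and 140.1, 50.7 and 40.0, and 170.4 and 158.4 in wild-type cells, and 234.3 and 264.3, 98.7 and 88.8, and 168.0 and 191.4 in kinase-dead cells. In each genotype the 1 h arrays were below all others. It fell by 1.34 ± 0.18 in kinase-dead cells (adjusted p = 0.000404, held whichever array was left out) and rose by 0.88 ± 0.18 to 4 h (adjusted p = 0.00948, lost in 3 of 12 fits that left out 1 array). Neat1, the scaffold of nuclear paraspeckles, had signals of 1002.2 and 714.1, 276.3 and 400.9, and 644.9 and 715.9 in wild-type cells, and 612.6 and 704.1, 467.2 and 404.1, and 483.8 and 521.8 in kinase-dead cells. Again the lowest signals in each genotype were at 1 h, but the kinase-dead difference of -0.59 ± 0.17 did not pass (adjusted p = 0.069).

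Of the 11 remaining members, 3 fell at 1 h in kinase-dead cells, and 0 rose to 4 h by the limma test (3 by an unadjusted p under 0.05). Tango2 had the lowest kinase-dead 1 h difference of all 70, with kinase-dead signals of 90.7 and 101.1, 41.2 and 20.1, and 26.6 and 55.6. The 1 h and 4 h arrays overlapped below the unstimulated ones. It fell by 1.48 ± 0.31 (adjusted p = 0.0136, lost in 3 of 12 fits that left out 1 array). Ncaph2, a condensin II subunit, fell by 0.64 ± 0.17 (adjusted p = 0.0449, lost in 6 of 12), but 2 other probe sets, with wild-type unstimulated signals of at least 50, were above 0, at 0.13 and 0.24. Ndrg1 fell by 0.64 ± 0.16 (adjusted p = 0.037, lost in 7 of 12). Ttc9 had -1.53 in wild-type cells and 0.04 ± 0.22 in kinase-dead cells (adjusted p = 0.958).

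The starting level differed between genotypes for part of the list. Unstimulated kinase-dead signals were lower than wild-type ones in 48 members, with a median log2 difference of -0.26, beside -0.02 over all genes tested. Since the rule set a minimum on the wild-type arrays alone, this is a description. The 5 largest differences were Gja3 (2.40), Cass4 (-1.83), Pkp1 (-1.53), Mroh2a (-1.52) and Socs2 (-1.51). Gja3 signals were 150.5 and 142.3 in wild-type and 826.5 and 785.2 in kinase-dead unstimulated cells. Cass4, an adhesion scaffold of the Cas family, had 73.8 and 63.8 against 10.0 and 17.7. Groups of the 2 genotypes did not overlap in either gene. In 8 members the kinase-dead level was at least 2-fold lower, and in these the kinase-dead 1 h difference had a median of -0.12. Among 58 members with both kinase-dead unstimulated signals at least 50, 21 fell at 1 h, 55 lay below 0 and the median was -0.57. Among the other 12, 0 fell by the limma test (0 by an unadjusted p under 0.05), 6 lay below 0 and the median was 0.08. Over all genes, 1.72% fell by the limma test and 9.09% were lower by an unadjusted p under 0.05. The splits by kinase-dead level use unstimulated arrays that also enter the 1 h difference, so these counts and medians are a description. Macrophage marker sums and some fibroblast and neural markers, given above, also differed between the genotypes, and their part in these differences was not tested.

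Other probe sets of the same genes gave a reading of the same RNA by other probes. There were 79 of them for 48 members, while 22 members had 1 probe set. Of the 27 with both wild-type unstimulated signals at least 50 (20 genes), 25 lay below 0 at 1 h in wild-type cells and 18 at -0.5 or less, with a median of -0.79. The median over tested genes with such signals was -0.04. That signal limit uses arrays that also enter the wild-type difference, so the wild-type counts are a description. In kinase-dead cells 22 of the 27 lay below 0, with a median of -0.36, beside 51.9% of all genes tested and a median of -0.01. The 52 dimmer ones had a wild-type median of -0.20, with 36 below 0. Among the 27, probe sets disagreed for Trappc5 (0.21 in wild-type cells against -1.06), Slc16a4 (0.00 against -1.33) and Ncaph2 (-0.11 and -0.30 against -1.05). In kinase-dead cells, the 5 above 0 at 1 h belonged to genes whose representing probe set lay below 0, namely Ncaph2 (0.13 and 0.24 against -0.64), Trappc5 (0.25 against -0.65), Slc16a4 (0.26 against -0.52) and Ocrl (0.34 against -0.20, with another at -0.23). Other probe sets were lower than the representing one for Otud7b (-0.47, -0.99 and -0.67 against -0.19), Six4 (-1.20 against -0.72, with another at -0.34), Rab39b (-1.09 against -0.30) and Ttc9 (-0.48 against 0.04). Second probe sets of Txnip (-1.05 in wild-type, -0.47 in kinase-dead cells) and Plcxd2 (-0.80 and -0.76) lay on the same side of 0 as the first. For 5 members (Socs2, Six4, Alkbh4, Ndrg1 and Ppif) the probe set is of a type that may also bind related transcripts.

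**Figure D5:**
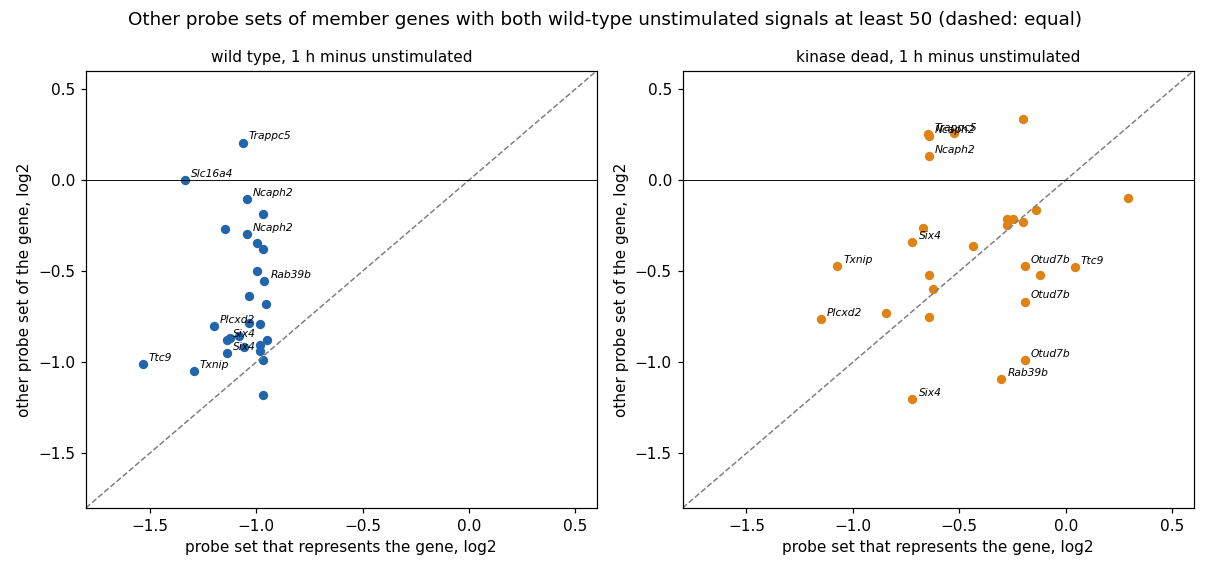
Points are 27 other probe sets of 20 members, with the 1 h minus unstimulated log2(signal + 8) of the probe set that represents the gene (horizontal) and of the other one (vertical), in wild-type (left) and kinase-dead cells (right), and the dashed line marks equality. In wild-type cells 25 of 27 lie below 0, most of them nearer 0 than the representing probe set, which was subject to the rule.

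Related genes from lists set with earlier results known were, like most genes tested, mostly not called at 1 h in kinase-dead cells. Over all genes tested, 1.72% fell and 1.55% rose there. At 4 h against unstimulated 0.177% fell and 0.443% rose, and from 1 h to 4 h 1.83% fell and 2.28% rose. Of 9 tested genes for RET ligands, co-receptors and adaptors, Ret alone was called in a kinase-dead comparison. The co-receptors Gfra1 (0.39 ± 0.22, adjusted p = 0.407), Gfra2 (0.41 ± 0.20, adjusted p = 0.334) and Gfra3 (0.14 ± 0.42, adjusted p = 0.916) did not pass at 1 h, and the ligands Gdnf, Nrtn and Artn and the co-receptor Gfra4 were under the signal filter. The list's median kinase-dead 1 h difference was 0.14. Of 8 tested desmosome genes, which include Pkp1, 0 passed the limma test in any kinase-dead comparison (median 0.05 at 1 h, where 1 had an unadjusted p under 0.05). Pkp1 itself was not called there, so these calls cannot show whether the other desmosome genes share its wild-type course. Among 15 genes of CCR4-NOT and BTG mRNA deadenylation, Cnot4 (-0.38 ± 0.09, adjusted p = 0.0353) and Tob2 (-0.34 ± 0.08, adjusted p = 0.0254) fell and Btg2 (1.70 ± 0.13, adjusted p = 4.75e-07) rose at 1 h in kinase-dead cells. Of 22 Wnt signalling genes, Lef1 fell (-0.94 ± 0.18, adjusted p = 0.00914), and of 15 TGF-beta and BMP feedback genes 4 rose (Smurf2, Tgif1, Id1 and Id2, by 0.56 to 1.12). From 1 h to 4 h, Tob1, Tob2 and Lef1 rose (adjusted p = 0.0119, 0.000429 and 0.00109), while Btg2 and 3 TGF-beta and BMP feedback genes fell. Lef1 also met the members' rule when it was applied to the kinase-dead arrays. Of 30 semaphorin, plexin and neuropilin genes and of 14 Notch pathway genes 0 passed the limma test in any kinase-dead comparison, where at 1 h 5 and 1 had an unadjusted p under 0.05, as did 16.67% of all genes. Of the 7 neural crest and melanocyte markers matched, Sox10, Dct and Tyr were below the filter level on every array, while Ret fell and Mitf rose at 1 h in kinase-dead cells (0.57 ± 0.12, adjusted p = 0.012).

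Genes that met the 1 h limit in wild-type cells but not the 4 h limits are given for comparison, without a test of the difference. Unlike the members, these sets were not filtered by symbol, so genes starting with Zfp or Hox could enter them. Of the 54 that were still lower at 4 h in wild-type cells, 9 fell at 1 h in kinase-dead cells, with a median of -0.37, and from 1 h to 4 h 6 rose and 1 fell. The shares of all genes given above for these comparisons (1.72%, 2.28% and 1.83%) apply here too. Of the 8 that were higher at 4 h, 5 fell at 1 h and 5 rose from 1 h to 4 h, with a 1 h median of -0.93. The members, at a median of -0.51, lay between these medians.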

How the data were processed

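RNA of 12 samples was measured on Affymetrix arrays with 1 colour. The deposited values are MAS5 signal intensities, per the submitters' processing notes, with no version or settings given in the sources used here. The deposited table holds 45101 probe sets. Of these, 64 are controls, and 34945 carry 1 gene symbol in the platform annotation, 932 several and 9160 none. Genes were named from the first kind, and 34741 of those probe sets matched the GRCm38.p6 gene table. Each array has the same mean of 150 once 2% is trimmed from each end, as computed from the values.

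No further normalization was applied. Signals were taken as log2(signal + 8), a pseudocount near the 25th percentile of all values (7.9), which understates changes of low signals. Probe sets at 25.5 (the median of all values) or more on at least 2 arrays entered, and all 70 members did. With limma 3.58.1 (R 4.3.3), 6 group means were fitted over all 12 arrays (eBayes with trend, two-sided), with Benjamini-Hochberg adjustment over 12427 genes in each of 3 kinase-dead comparisons, and an adjusted p under 0.05 is called. Comparisons that hold a wild-type group were not tested, since the rule used those arrays. Figures used matplotlib 3.10.9.

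On data simulated for the kinase-dead 1 h comparison over 12427 genes, with 200 changed, 74% of changes of 1 and 95% of changes of 2 on the log2 scale were recovered. There 11 of 180 calls were of unchanged genes, and 0 genes were called with none changed. The simulated noise was normal with variances from the same fit, so these figures cannot show how the test does where real arrays vary otherwise. Replicate numbers did not pair the samples.

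The members and lists were chosen with earlier results of these data known. Members named are the 12 with the largest wild-type difference, those called in a kinase-dead comparison, the 4 nearest each side of the 1 h limit, the 5 highest and lowest at 1 h in kinase-dead cells, the 5 with the largest genotype difference, those whose probe sets disagree, and examples of a role group by their wild-type difference. Neat1, Ern1, Socs2, Slc30a1, Trappc5, Gja3, Dis3 and Cnot3 were picked for extra detail after their values were seen. Alternatives covered pseudocount, filter, normalization, variance model, arrays fitted, replicate block, probe set and leaving out each array. Probe sets with several symbols were not used.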

Additional observations from a re-analysis of the deposited data

Results flagged for a closer look

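In 4 members both kinase-dead 1 h arrays lay above both unstimulated arrays of that genotype, while the wild-type arrays, by the rule, were lower at 1 h. The kinase-dead 1 h minus unstimulated log2 differences were 0.84 for Mroh2a, 0.72 for Cass4, 0.29 for the zinc knuckle protein Zcchc3 and 0.22 for Cyp26b1. The difference between the genotypes was not tested, since the wild-type side was selected. None of the 4 passed limma's test within kinase-dead cells (adjusted p = 0.304, 0.23, 0.419 and 0.691 in that order). Among all genes tested, 23.4% had both kinase-dead 1 h arrays above both unstimulated ones. Mroh2a signals were 5.8 and 29.7 unstimulated and 31.4 and 34.1 at 1 h in kinase-dead cells, and unstimulated replicate 1 stands apart from the rest. Cass4 signals were 10.0 and 17.7, then 26.1 and 28.6, all below the minimum of 50 that the rule set for unstimulated wild-type arrays. Zcchc3 signals were 348.4 and 271.2, then 367.9 and 390.0.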

How the results depend on the processing

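The member count of 70 became 34 (29 shared) with a pseudocount of 32 and 37 (34 shared) with arrays centred on their median, and 71 to 106 when 1 wild-type array was left out, the last without wild-type 1 h replicate 1, with 50 to 65 of the 70 shared (50 without unstimulated replicate 1, 53 without unstimulated replicate 2 and 52 without 1 h replicate 2). Members that fell at 1 h in kinase-dead cells numbered 12 with no filter, 7 with eBayes without trend, 13 with the probe set of highest variance, and 6 to 28 when 1 array was left out, against 21. At 4 h against unstimulated the count of 0 became 2 with only the kinase-dead arrays, and 0 to 2 when 1 array was left out. From 1 h to 4 h it became 5 with eBayes without trend, and 8 to 21 when 1 array was left out, against 18. The cause of these changes was not tested, but fits without an array have fewer samples, and the array left alone in its group is assumed to vary like the other groups. Replicate numbers showed no pairing (correlations of deviations -0.05 to 0.101 over 15 group pairs), and with the replicate number as a block the counts were 21, 0 and 17. The other alternatives stayed within 1.5 times the count. No called gene changed direction in any alternative run. Differences near 0 did at 1 h in kinase-dead cells when 1 array was left out: Pkp1 (-0.12) ranged from -0.279 to 0.046, the latter without unstimulated replicate 2, and Ttc9 (0.04) ranged from -0.138, when 1 h replicate 1 was dropped, to 0.222, and was -0.11 with unstimulated replicate 1 dropped. Of the 21 and 18 calls, 6 and 5 held in every alternative, namely AA386476, Creb5, Plcxd2, Rbak, Ret and Txnip, and Creb5, Plcxd2, Ret, Txnip and Zik1. Over all genes, the counts that fell and rose at 1 h in kinase-dead cells were 214 and 193, and 123 and 128 with arrays centred on their median, 20 and 37 without trend and 339 and 297 with only the kinase-dead arrays. Median centring moved the median of all genes by less than 0.1, and the members' kinase-dead 4 h median, 0.01, became -0.06 (40 members below 0). Signals of a few units, as for Kbtbd8, are near the bottom of the scale, and 2 arrays a group limit the precision.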
